A study of Mus musculus with 7 samples.

Results

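Tgfb1, Tgfbr1, Tgfbr2, Smad2, Smad3, Smad4, Smad7, Ski and Skil are 9 genes of the transforming growth factor beta (TGF-beta) pathway, and the binding of the transcription factors PU.1 and MITF around them was followed in mouse myeloid cells as these became osteoclasts. They are 9 of the 22089 protein-coding genes of the mouse annotation, and were chosen by name for their place in the pathway. A peak was counted for a gene when its centre lay in the gene or within 50 kb of either end. In these windows the lists held 141 PU.1 peaks before RANKL, 138 after 36 h and 148 after 72 h, and 10, 8 and 10 MITF peaks. Peaks of different lists that overlapped were joined into 195 sites. PU.1 was found at each of the 195 in at least 1 list, and MITF at 14.

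The data were 7 ChIP-Seq libraries, a method in which chromatin bound by a protein is pulled down with an antibody and sequenced. Bone marrow was flushed from mice of strain C57BLACK6 aged 4 to 6 weeks and grown for 3 days with CSF1 at 50 ng/ml, which keeps myeloid cells alive, to give the myeloid precursors (MPs). RANKL, the cytokine that drives osteoclast formation, was added at 100 ng/ml for 36 h or for 72 h, the second giving the osteoclasts (OCs), and all 3 conditions contained CSF1. PU.1 and MITF were each precipitated with 5 µg of antibody at all 3 stages, and non-specific IgG in MPs alone. Each condition was 1 library, so every interval and p-value given here covers the counting of tags and not the spread between cultures. How many mice went into a culture, and what share of the cells had become osteoclasts, is not given in the sources used here. A score averages over a culture, so that binding in more cells cannot be told apart from more binding per cell.

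The Peak Score in the lists is the number of sequenced tags in a peak after scaling to a common library size. The 3 PU.1 libraries held 5860000 to 6810000 tags and the 3 MITF libraries 8760000 to 10270000, as implied by the worth of 1 tag if HOMER's default scale was used. The lowest listed scores were 10.2 to 10.3 for PU.1 and 9.1 to 9.7 for MITF, and binding below them cannot be seen. The MITF list of 36 h differed in form: its peaks were 150 to 1387 bp wide, against 150 bp in MPs and OCs, and its median score was 23.4, against 12.5 and 11.4. PU.1 peaks were at most 190 bp wide at 36 h and at most 150 bp in MPs and OCs. The IgG list held no peak in any of the 9 windows. PU.1 peaks lay around the myeloid genes Csf1r (17, 19 and 22 peaks in MPs, at 36 h and in OCs), Itgam (16, 16 and 17) and Emr1 (11, 10 and 14). The osteoclast genes ranged from Ctsk (13, 12 and 13) and Acp5 (10, 6 and 8) down to Calcr (1, 1 and 1), and genes of other cell types also had peaks, with 4, 3 and 5 at Cd3e, 8, 7 and 6 at Alb and 7, 5 and 6 at Col1a1. The lists therefore do not by themselves check the cell type of a culture.

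TGF-beta is secreted in a latent form, is stored in bone matrix in large amounts and is released when osteoclasts resorb it. The active ligand brings together a type II and a type I receptor kinase, the type I receptor phosphorylates SMAD2 and SMAD3, and these enter the nucleus with SMAD4 to regulate genes. SMAD7 is induced by the signal and shuts the receptor down, while SKI and SKIL hold SMAD complexes in a repressed state. In osteoclast precursors TGF-beta is known both to favour and to restrain differentiation, depending on the time and the setting. PU.1 is an ETS factor required for the myeloid lineage that binds sequences around GAGGAA, and MITF is a basic helix-loop-helix factor required for osteoclasts that binds E-boxes such as CACGTG and CATGTG.

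The sites with the highest PU.1 scores at Tgfb1, Tgfbr1, Tgfbr2, Smad3 and Ski, which were also bound by MITF in at least 2 of the 3 lists, are shown because the comparisons below turn on them. Each line gives the 200 bases around the PU.1 site, mm9, forward strand, 5′ to 3′. Capitals mark every match, on either strand, to 8 motifs: the PU.1 letters GAGGAAGT and the shorter GAGGAA that lies inside it, the E-boxes CACGTG and CATGTG, the AP-1 motif TGANTCA, the SMAD motifs CAGACA and GTCTAGAC, and the RUNX motif TGTGGT.
Tgfb1, chr7:26491868-26492067: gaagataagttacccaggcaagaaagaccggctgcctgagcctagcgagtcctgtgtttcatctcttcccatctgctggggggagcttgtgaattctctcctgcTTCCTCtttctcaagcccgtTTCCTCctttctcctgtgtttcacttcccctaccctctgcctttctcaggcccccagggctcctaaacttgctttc
Tgfbr1, chr4:47328370-47328569: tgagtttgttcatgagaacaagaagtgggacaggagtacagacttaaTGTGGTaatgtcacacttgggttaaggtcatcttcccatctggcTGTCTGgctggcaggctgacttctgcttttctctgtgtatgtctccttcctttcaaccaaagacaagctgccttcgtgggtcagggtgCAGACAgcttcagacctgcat
Tgfbr2, chr9:115993210-115993409: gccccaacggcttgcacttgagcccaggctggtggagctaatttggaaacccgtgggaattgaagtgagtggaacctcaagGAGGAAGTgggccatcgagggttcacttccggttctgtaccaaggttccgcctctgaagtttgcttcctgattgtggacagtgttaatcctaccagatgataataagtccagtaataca
Smad3, chr9:63579311-63579510: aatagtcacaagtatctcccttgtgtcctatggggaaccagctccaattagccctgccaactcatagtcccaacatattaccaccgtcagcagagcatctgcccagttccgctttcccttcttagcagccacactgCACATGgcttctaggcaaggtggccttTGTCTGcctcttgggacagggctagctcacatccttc
Ski, chr4:154609109-154609308: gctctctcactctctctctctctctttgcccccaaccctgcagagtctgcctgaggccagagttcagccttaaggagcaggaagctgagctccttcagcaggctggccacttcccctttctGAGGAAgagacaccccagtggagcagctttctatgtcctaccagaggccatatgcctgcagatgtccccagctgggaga
Counted from 1 at the left end, the Tgfb1 site held GAGGAA on the reverse strand at bases 105 to 110 and 125 to 130. Within the 200 bases printed, the Tgfbr1 site held no GAGGAA, but TGTGGT at bases 48 to 53 and CAGACA at bases 92 to 97 (reverse strand) and 180 to 185. The Tgfbr2 site held the full GAGGAAGT at bases 82 to 89. At the Smad3 site CATGTG was found at bases 137 to 142 and CAGACA at bases 164 to 169, both on the reverse strand, and at the Ski site GAGGAA at bases 122 to 127.

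PU.1 was dense around the ligand, both receptors, Smad3 and Ski, and closer to the median gene around Smad2, Smad4 and Smad7. All 9 genes had a PU.1 peak at every stage, as had 83.7% of all protein-coding genes in MPs, 83.3% at 36 h and 83.8% in OCs. The median over the 9 genes was 18, 18 and 16 PU.1 peaks in MPs, at 36 h and in OCs, against 6 over all genes at each stage. The windows differ in length, from 118 kb at Tgfb1 to 211 kb at Smad3. Per 100 kb the median of the 9 genes was 12.3, 10.7 and 12.5 peaks, against 4.73, 4.64 and 4.85 for all genes. The median summed score, which is the total of all PU.1 scores in a window, was 967, 810 and 1010, against 205, 189 and 208. These medians describe genes that were picked by name, and no test was made of them.

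**Figure D1:**
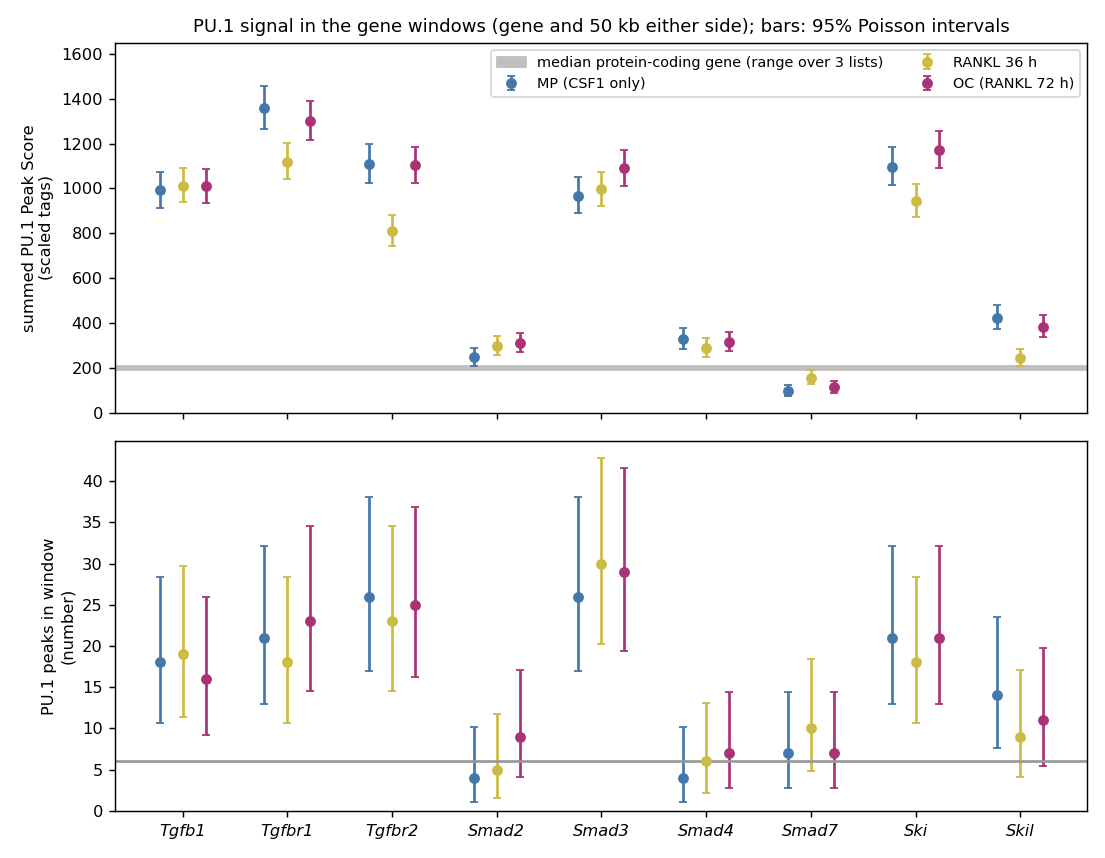
Summed PU.1 Peak Score (upper plot, scaled tags, bars for 95% Poisson intervals) and number of PU.1 peaks (lower plot) in the window of each of the 9 genes, in MPs, at 36 h and in OCs. Tgfb1, Tgfbr1, Tgfbr2, Smad3 and Ski lie at 810.0 or above in every list, and the other 4 genes at 422.9 or below.

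Tgfb1, which encodes the ligand (ENSMUSG00000002603.9, chr7:26472021-26490096, forward strand), had 18, 19 and 16 PU.1 peaks and summed scores of 991.2 (95% Poisson interval 912 to 1075), 1012.5 (938 to 1091) and 1010.1 (936 to 1089) in MPs, at 36 h and in OCs. Its density in OCs, 13.6 peaks per 100 kb, was above that of 94.7% of all genes. Of its 21 sites only 1 lay in the gene itself, in intron 1, 2.27 kb from the start, with scores of 56.3, 91.6 and 89.6. The window is crowded: it also holds Bckdha, Exosc5, Tmem91, B9d2, Ccdc97 and Hnrnpul1, and for all but 1 of the 21 sites another coding gene has the nearer start. The strongest site lay 19.9 kb from the start, just beyond the 3' end of the gene in intergenic sequence, and scored 247.3, 180.3 and 190.9. The next lay 3.25 kb before the start in an intron of B9d2 and scored 182.5, 178.9 and 170.3. Both of these were also MITF sites.

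Tgfbr1, the type I receptor (ENSMUSG00000007613.9, chr4:47366094-47427803, forward strand), had 21, 18 and 23 PU.1 peaks and the highest summed scores of the 9 genes: 1359.7 (1267 to 1457) in MPs, 1119.1 (1041 to 1202) at 36 h and 1301.0 (1217 to 1390) in OCs. The site 37.6 kb before its start, between Col15a1 and Tgfbr1, was the strongest of all 195, with scores of 322.4, 283.8 and 251.1. It ranked 65 of 76243 PU.1 peaks in MPs, 69 of 71941 at 36 h and 162 of 77072 in OCs. A second strong site lay 49.7 kb before the start in an intron of Col15a1, with 252.5, 258.7 and 237.9. For both sites the nearest start of a coding gene was that of Col15a1, 11875 bp from the first and 213 bp from the second. Tgfbr1 itself had the nearest start for 19 of its 27 sites. A series of weaker sites led from the upstream sites to the gene, among them one 3.29 kb before the start that scored 114.3, 90.2 and 79.3. Inside the gene 12 sites were found, of which the highest, in intron 1, scored 83.6, 82.8 and 70.5.

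Tgfbr2, the type II receptor that binds the ligand first (ENSMUSG00000032440.5, chr9:115993415-116084383, reverse strand), had 26, 23 and 25 PU.1 peaks. Its summed score was 1108.7 (1025 to 1197) in MPs, 810.0 (744 to 881) at 36 h and 1102.8 (1025 to 1185) in OCs, so that the 36 h value lay below both others and their intervals. Of its 32 sites 14 were in intron 1, and 31 had Tgfbr2 as the coding gene with the nearest start. The strongest site lay 91.1 kb from the start, just past the 3' end, and scored 136.5, 103.5 and 130.7. The site 3.11 kb before the start followed with 126.2, 88.7 and 92.5. In intron 1, 8.88 kb from the start, the scores were 61.4, 26.6 and 64.6.

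The receptor-regulated SMADs stood apart from each other. Smad3 (ENSMUSG00000032402.6, chr9:63494574-63605801, reverse strand) had the most sites of the 9 genes, 38, with 26, 30 and 29 peaks and summed scores of 967.1 (889 to 1050), 996.2 (922 to 1074) and 1089.7 (1013 to 1171). Of these sites 19 lay in intron 1. The strongest, 26.4 kb into that intron, scored 220.0, 218.8 and 237.9 and ranked 260 of 77072 in OCs. Smad2 (ENSMUSG00000024563.9, chr18:76401234-76465385, forward strand) had 4, 5 and 9 peaks and summed scores of 247.4 (209 to 291), 297.1 (257 to 341) and 309.9 (269 to 355). Per 100 kb this was 5.48 peaks in OCs for Smad2, against 13.7 for Smad3. A single intergenic site 13.5 kb before the start of Smad2 scored 145.0, 193.6 and 171.8 and made up most of its sum. Of the 9 peaks in OCs, 5 were at sites seen in OCs alone, whose scores were 10.3 to 22.0 with a list minimum of 10.3. The Poisson intervals of the 2 peak counts, 1.09 to 10.2 and 4.12 to 17.1, overlapped.

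Smad4, the shared partner of the receptor-regulated SMADs (ENSMUSG00000024515.7, chr18:73798663-73863434, reverse strand), had 4, 6 and 7 PU.1 peaks and summed scores of 327.5 (283 to 377), 289.6 (251 to 333) and 315.9 (275 to 361). Its strongest signal lay in introns of the neighbour Elac1: a site 41.3 kb before the start of Smad4 scored 187.6, 167.0 and 160.1, and one 48.4 kb before it 93.8, 69.5 and 61.7. Within Smad4 no site exceeded 27.3. Smad7, the inhibitor of the receptors (ENSMUSG00000025880.5, chr18:75527183-75555589, forward strand), had 7, 10 and 7 peaks, all weak, with summed scores of 97.1 (73.6 to 126), 156.6 (128 to 189) and 113.2 (89.2 to 141). None of its 14 sites scored above 25.1. Its OC sum stood at the percentile 35.9 of all genes, the lowest of the 9, although its 5.45 peaks per 100 kb were close to the median of all genes.

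The corepressors also differed. Ski (ENSMUSG00000029050.8, chr4:154528184-154596701, reverse strand) had 21, 18 and 21 PU.1 peaks and summed scores of 1096.9 (1014 to 1185), 943.0 (871 to 1019) and 1171.9 (1092 to 1256). Of its 28 sites 15 were in intron 1. One of these, 59.2 kb from the start, scored 153.5, 177.4 and 196.8, and a site 12.5 kb before the start scored 194.5, 199.5 and 196.8. Skil (ENSMUSG00000027660.9, chr3:30993980-31021499, forward strand) had 14, 9 and 11 peaks and summed scores of 422.9 (372 to 479), 243.8 (208 to 284) and 384.8 (340 to 434). Its strongest site, 5.85 kb before the start, scored 97.2, 66.5 and 98.4. The 36 h sums of Skil and Ski were thus below the intervals of both other stages, as were those of Tgfbr1 and Tgfbr2. The median gene was also lower at 36 h than in MPs, with a log2 ratio of -0.14. Ski (-0.22) and Tgfbr1 (-0.28) stood at the percentiles 40.3 and 32.9 of all genes by this ratio, and Tgfbr2 and Skil at 17.1 and 4.30.

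**Figure D2:**
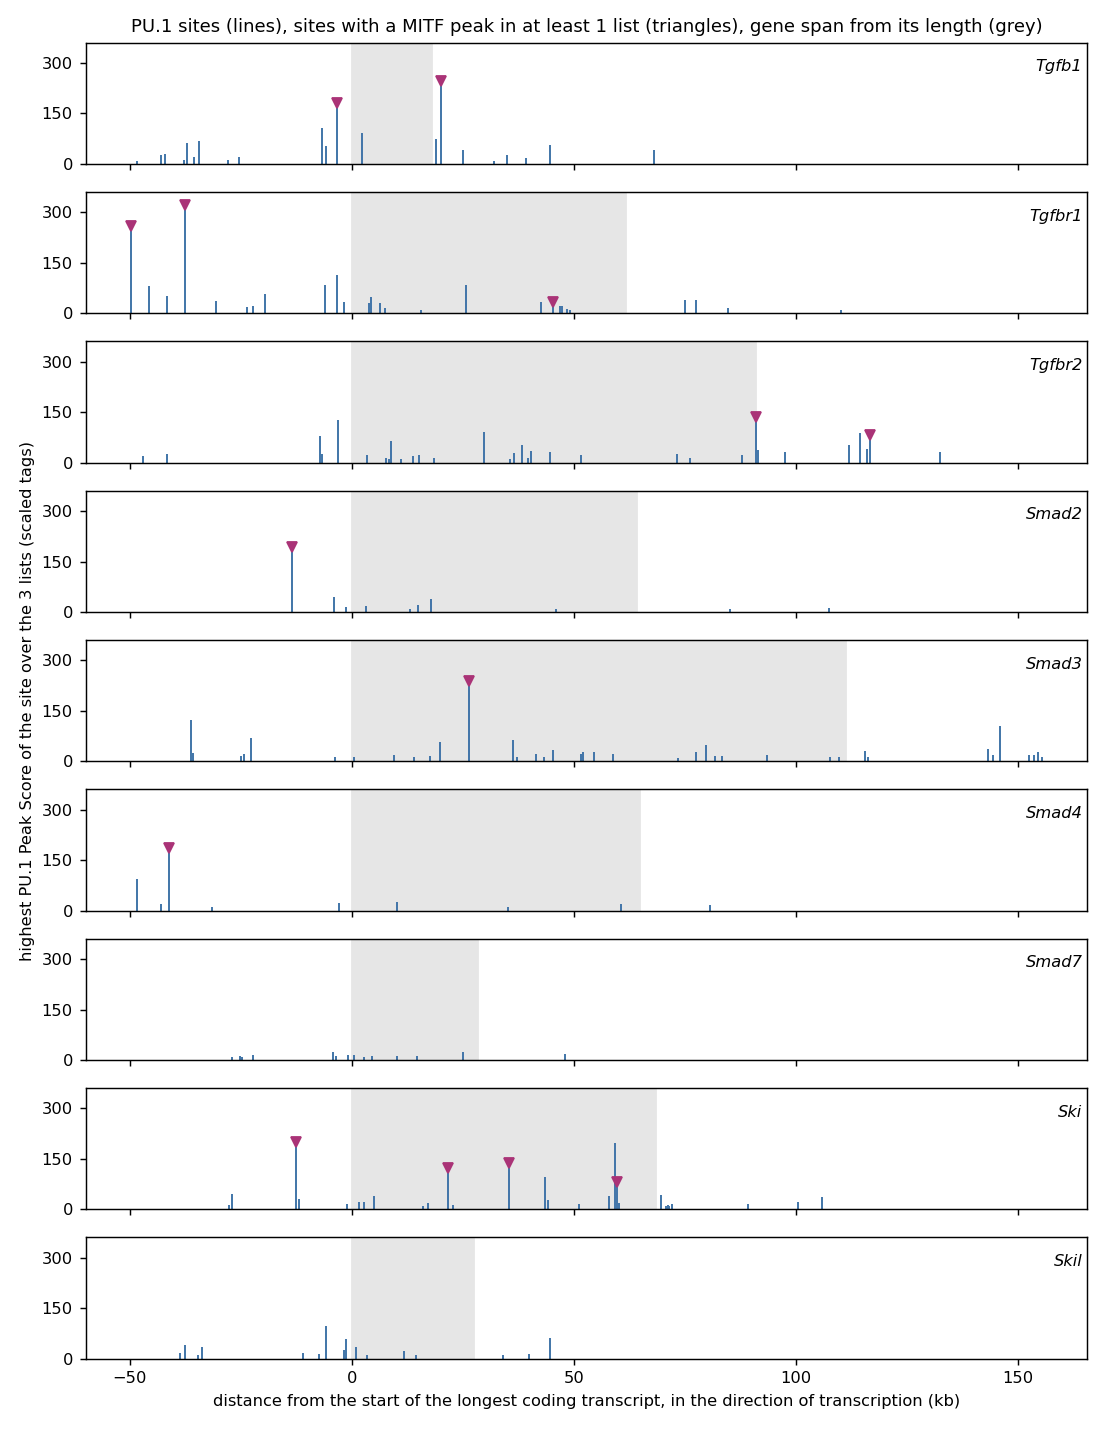
Each of the 195 PU.1 sites (lines) by distance from the start of the longest coding transcript (kb, in the direction of transcription) and by its highest PU.1 Peak Score over the 3 lists (scaled tags), with triangles for the 14 sites that had an MITF peak. The tallest line, at Tgfbr1, stands 37.6 kb upstream of the start and reaches 322.4, while the Tgfb1 site 3.25 kb before the start reaches 182.5.

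Few of the sites lay at a start of their own gene. Of the 195 sites 114 were in introns, 67 between genes and 14 in exons, and 62 were in intron 1 of one of the 9 genes. Only 6 lay within 1 kb of a start of their own gene, and none of these scored above 34.0. Smad3 had 2 of them, Smad7 had 3 and Skil 1. The Skil site, 1.02 kb from the main start in intron 1, scored 20.5, 13.3 and 33.8, and the Smad7 site in exon 1 scored 11.9, 14.8 and 14.7. For 137 of the 195 sites the nearest start of a coding gene belonged to the member itself. The share was 31 of 32 at Tgfbr2, 14 of 14 at Smad7 and 10 of 10 at Smad2, but 4 of 9 at Smad4 and 1 of 21 at Tgfb1. The 6 sites near an own start leave out sites near the start of a neighbour. One of these, in the window of Tgfbr1, lay 213 bp from a start of Col15a1 and scored up to 258.7. A site was assigned to a gene by distance, and which gene it regulates was not measured. No counts of place over all PU.1 sites are set beside these, so they are not shown to be particular to the 9 genes. Across the genome, the paper that reported the data places OC PU.1 peaks mostly far from gene starts, in introns or between genes.

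The sites were mostly shared between stages, at the rate of the whole genome. Of the 195 sites 100 had a PU.1 peak in all 3 lists, which is 51.3%, against 50.5% of all 102274 PU.1 sites. Of the peaks in OCs 114 of 148 (77.0%, 95% Wilson interval 69.6 to 83.1) overlapped a peak of MPs, against 78.0% of all OC peaks, and 107 of the 138 peaks at 36 h (77.5%, 69.9 to 83.7) did so, against 78.3%. As a share of the other list, 114 of the 141 peaks in MPs (80.9%, against 78.8%) overlapped one of OCs and 107 of 141 (75.9%, against 73.9%) one of 36 h. Between 36 h and OCs 109 peaks overlapped, 79.0% of those at 36 h (80.6% of all) and 73.6% of those in OCs (75.3%). Sites of a single stage numbered 19 for MPs (11.1% of sites genome-wide), 20 for 36 h (9.03%) and 24 for OCs (10.3%). These were weak. The highest in MPs scored 20.5, in intron 1 of Ski, and the highest at 36 h scored 22.2, in exon 7 of Tgfbr2. In OCs the highest were 51.4 at 41.6 kb before Tgfbr1, in an intron of Col15a1, 39.6 in intron 1 of Ski at 57.9 kb, and 25.0 at 6.65 kb before Tgfbr2. Over the 100 sites shared by all lists the median of the highest score was 41.0, over the 32 sites in 2 lists it was 17.1, and over the 63 sites in 1 list 13.2. A peak missing from a list may have held tags below the list's minimum.

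**Figure D3:**
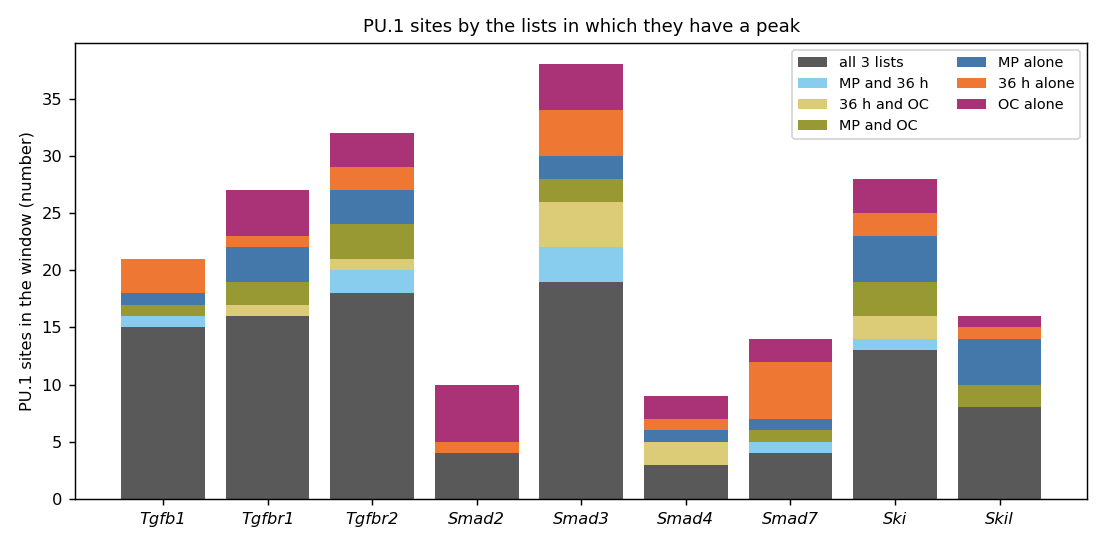
Number of PU.1 sites in each gene's window, split by the lists in which the site had a peak. Sites with a peak in all 3 lists range from 15 of 21 at Tgfb1 to 4 of 14 at Smad7.

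No PU.1 peak around the 9 genes passed the test for a change between stages. Peaks that overlapped in 2 lists were paired, and their tags were compared by a two-sided exact binomial test. The expected ratio was that of the median pair, and p-values were adjusted over the pairs of the whole genome (Benjamini-Hochberg). From MPs to 36 h, 4 of 107 pairs were at least 2-fold higher (4.02% of all pairs) and 4 at least 2-fold lower (3.41%). None had both a 2-fold change and an adjusted p under the threshold (1.05% of all pairs), and the smallest adjusted p of the exact test was 0.186, with 8 pairs under an unadjusted 0.05. From 36 h to OCs 4 of 109 pairs were 2-fold higher (2.01%) and none lower (2.61%), and none passed the test (0.0707%), with a smallest adjusted p of 0.332 in the exact test and 5 pairs under an unadjusted 0.05. From MPs to OCs 4 of 114 pairs were 2-fold higher (3.00%) and none lower (2.38%), again with none passing (0.156%), a smallest adjusted p of 0.535 in the exact test and 7 pairs under an unadjusted 0.05. The pairs had a median of at most 42.0 tags in both lists together, and at this depth a change near 2-fold was too small to pass after adjustment. A Tgfbr1 pair with 42 tags and a log2 ratio of -1.08 from MPs to 36 h had an adjusted p of 0.306 in the exact test. The lack of a call therefore does not show that such peaks were unchanged.

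Among pairs with at least 30 tags the largest differences included sites at both receptors, Skil and Tgfb1. The Tgfbr2 site in intron 1, 8.88 kb from the start, had 36, 18 and 44 tags in MPs, at 36 h and in OCs (scores 61.4, 26.6 and 64.6). Its log2 ratio relative to the median pair was -1.08 (95% interval -1.99 to -0.23, exact test with Benjamini-Hochberg adjusted p = 0.208) from MPs to 36 h, and 1.17 (0.35 to 2.05, adjusted p = 0.332 in the same exact test) from 36 h to OCs. A Tgfbr1 site in intron 1, 4.39 kb from the start, scored 47.8, 20.7 and 41.1, with a log2 ratio of -1.08 (-2.12 to -0.11) from MPs to 36 h. The Skil site in intron 1 had a log2 ratio of 1.24 (0.07 to 2.53) from 36 h to OCs. In the other direction the site in intron 1 of Tgfb1 went from 33 to 62 tags between MPs and 36 h, a log2 ratio of 0.83 (0.20 to 1.48, exact test with Benjamini-Hochberg adjusted p = 0.186). The strongest site before Tgfbr1 had 189, 192 and 171 tags, with a log2 ratio of -0.06 (-0.36 to 0.24) from MPs to 36 h, -0.28 (-0.59 to 0.02) from 36 h to OCs and -0.34 (-0.64 to -0.03, exact test with Benjamini-Hochberg adjusted p = 0.543) from MPs to OCs.

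Summed over a window, the values of the 9 genes were lower or higher at 36 h by less than 2-fold. No member's PU.1 sum was at least 2-fold higher or lower than the median gene's ratio from MPs to 36 h (1.87% and 1.73% of all genes), from 36 h to OCs (1.11% and 1.11%) or from MPs to OCs (1.25% and 1.17%). The median gene had a log2 ratio of -0.14 from MPs to 36 h and 0.14 from 36 h to OCs. Skil had -0.79 (-1.09 to -0.50) and 0.66 (0.37 to 0.95), at the percentiles 4.30 and 94.7 of all genes. Tgfbr2 had -0.45 (-0.62 to -0.29) and 0.45 (0.28 to 0.61). Smad7 ran the other way, with 0.69 (0.21 to 1.18) and -0.47 (-0.91 to -0.03), at the percentiles 97.0 and 3.97. Its peaks numbered 7, 10 and 7 in MPs, at 36 h and in OCs, with mean scores of 13.9, 15.7 and 16.2. At Smad7, 5 sites were seen at 36 h alone, with scores of 11.8 to 14.8 against a list minimum of 10.3. The Skil peaks numbered 14, 9 and 11, with mean scores of 30.2, 27.1 and 35.0. The intervals do not cover whether a weak peak was listed. For all 9 genes the log2 ratio from MPs to OCs lay between -0.14 at Skil and 0.32 at Smad2. The 36 h library enters both steps, so a low or high value there appears in both with opposite sign.

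**Figure D4:**
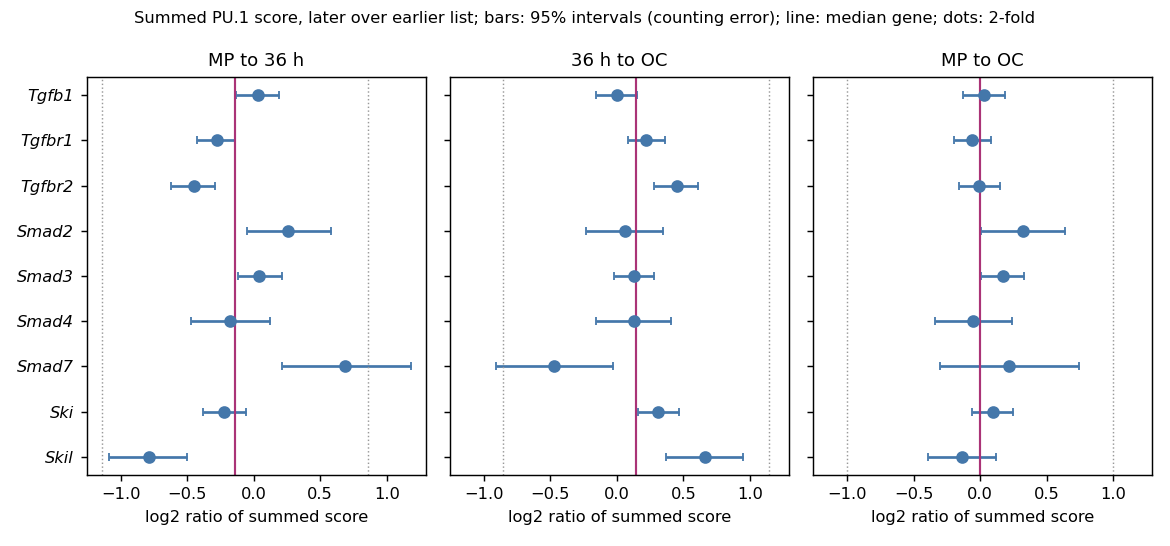
Log2 ratio of the summed PU.1 score of each gene, later over earlier list, for the 3 pairs of stages, with 95% intervals for counting error, a line at the median gene and dotted lines at 2-fold. Skil lies at -0.79 and 0.66 in the first and second step and Smad7 at 0.69 and -0.47, while from MPs to OCs the 9 genes lie between -0.14 and 0.32.

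MITF was found at 14 sites around 7 of the 9 genes, always at a PU.1 site, and around Smad7 and Skil in no list. MITF peaks lay in 6 of the 9 windows in MPs (32.1% of all genes), 6 at 36 h (24.0%) and 5 in OCs (28.8%). All 10, 8 and 10 MITF peaks overlapped a PU.1 peak of the same stage, against 97.9%, 93.8% and 93.3% of all MITF peaks. Of the 10 MITF peaks in MPs 7 overlapped an MITF peak of 36 h (46.4% of all) and 6 one of OCs (52.5%). Of the 8 at 36 h 7 overlapped one of MPs (70.9%) and 6 one of OCs (66.4%), and of the 10 in OCs 6 overlapped one of MPs (64.0%) and 6 one of 36 h (52.9%). From the other side, 7.09% of the PU.1 peaks in MPs, 5.80% at 36 h and 6.76% in OCs had an MITF peak, against 6.95%, 4.62% and 5.38% of all PU.1 peaks. The MITF sites were mostly strong PU.1 sites: their highest PU.1 score had a median of 185 and ran from 34.1 to 322.4, whereas the other 181 sites had a median of 22.2 and ran from 10.2 to 196.8. No such contrast over all PU.1 peaks is given here, so it is not shown to be particular to these genes. The site in intron 1 of Ski at 59.2 kb, with a PU.1 score of 196.8 in OCs, had no MITF peak in any list.

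At the ligand, MITF at the site 19.9 kb from the start of Tgfb1 scored 35.3 in MPs, 101.2 at 36 h and 37.7 in OCs. The site 3.25 kb before the start had MITF in MPs alone, at 9.3, the lowest score of that list. Tgfbr1 had the most MITF signal of the receptors: the site at 49.7 kb scored 37.4, 61.3 and 27.4, and that at 37.6 kb, whose sequence is shown above, 26.0, 71.1 and 18.3. Another site, in intron 4 at 45.2 kb, appeared in OCs alone with 11.4. At Tgfbr2 the site past the 3' end scored 12.5 in MPs and 11.7 at 36 h and was not listed in OCs, and one in an intron of Gadl1 scored 9.3 in MPs.

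Among the SMADs, MITF at the site 13.5 kb before Smad2 was listed at every stage, with 32.2, 37.0 and 26.3. At the intron 1 site of Smad3, where PU.1 was far stronger than at most sites, MITF scored 12.5 in MPs and 11.7 at 36 h and was not listed in OCs. Smad4 had MITF in OCs alone, at 12.6, on its strongest PU.1 site in Elac1. Ski had the most MITF sites, 4. The site 12.5 kb before its start scored 10.4, 37.0 and 11.4, and the intron 1 site at 35.3 kb had none in MPs, 9.7 at 36 h and 14.8 in OCs. The site at 21.6 kb scored 14.5 in MPs and 11.4 in OCs, and that at 59.6 kb 11.4 in OCs alone. Most of these values lie close to the lowest scores listed, so that absence from a list does not show absence of MITF.

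**Figure D5:**
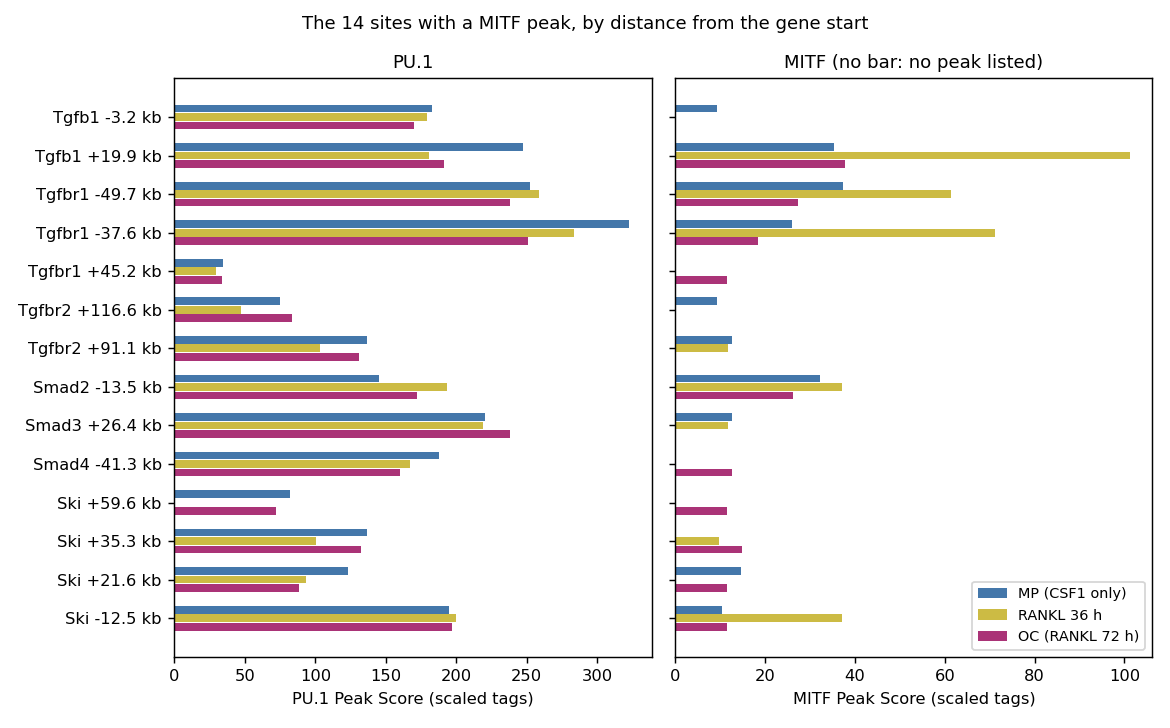
PU.1 (left) and MITF (right) Peak Scores (scaled tags) at the 14 sites with an MITF peak, in MPs, at 36 h and in OCs, with no bar where no peak was listed. MITF at the Tgfb1 site at 19.9 kb (35.3, 101.2 and 37.7) and at both upstream Tgfbr1 sites is highest at 36 h, in the list with wider peaks.

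The MITF scores at 36 h were high throughout that list, and against this background 1 of the paired sites passed the test. The median pair of the genome had 1.7368 times as many tags at 36 h as in MPs, where the library sizes differed by 1.0671 times, and the part of the wider peaks in this was not tested. Relative to the median pair, 1 of 7 MITF pairs was at least 2-fold higher at 36 h than in MPs (11.7% of all pairs) and none 2-fold lower (15.7%). This was the site before Ski, with a log2 ratio of 1.13 (0.10 to 2.30, exact test with Benjamini-Hochberg adjusted p = 0.102), so none had both 2-fold change and significance (15.2%). The Tgfb1 site had a log2 ratio of 0.82 (0.25 to 1.42, exact test with Benjamini-Hochberg adjusted p = 0.0265), under 2-fold. Relative to library size its ratio was 1.52 with an adjusted p of 2.09e-07 in the exact test, past 2-fold, and with pairs of at least 30 tags alone it was 0.52 with 0.229. From 36 h to OCs, of 6 pairs 1 was 2-fold higher (14.1%) and 1 lower (10.3%), and 1 passed the test (9.66%). It was the site 37.6 kb before Tgfbr1, with 73 tags at 36 h and 16 in OCs, a log2 ratio of -1.11 (-1.99 to -0.31, exact test with Benjamini-Hochberg adjusted p = 0.0416). When pairs of at least 30 tags alone were used, which changes the median pair, its ratio was -0.80 and the adjusted p of the exact test 0.236, and relative to library size it was -1.96 with an adjusted p of 5.24e-07. The 36 h peak of this site (chr4:47328309-47328557) was wider than its OC peak (chr4:47328383-47328533). Counting both end bases, the 36 h MITF peak covered 264 bp at Tgfb1, 172 bp at Smad2 and 151 bp at Smad3 and Tgfbr2. Their log2 ratios from MPs were 0.82, -0.50, -0.80 and -0.80. The rest of the 7 pairs were at Ski (36 h peak chr4:154609110-154609314, log2 ratio 1.13) and Tgfbr1 (chr4:47328309-47328557, 0.75, and chr4:47316316-47316503, 0.01). The largest ratio was that of the Ski peak, which was narrower than the Tgfb1 peak. The part of peak width in these ratios was not tested. Between MPs and OCs, whose lists had the same peak width, none of 6 pairs was 2-fold higher (1.37%) or lower (2.50%), none passed the test (0%), and the log2 ratios ran from -0.40 to 0.24.

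Summed over a window, MITF at Ski and Tgfbr2 differed between stages by at least 2-fold relative to the median gene, in values without a test. Only genes with at least 30 tags in both lists together were compared. From MPs to 36 h no member was 2-fold higher (9.54% of all genes) and Tgfbr2 was lower (18.4%), with sums of 21.8 and 11.7 against a median log2 ratio of 0.72. From 36 h to OCs Ski was higher (14.7%) and none lower (6.08%), with sums of 46.7 and 49.0 against a median log2 ratio of -1.04. From MPs to OCs Ski was again higher (7.81%) and none lower (10.3%), with 24.9 and 49.0, a log2 ratio of 0.98 (0.22 to 1.76). Its MITF peaks numbered 2 in MPs and 4 in OCs with mean scores of 12.4 and 12.2, so that the higher sum came with more listed peaks and not with higher ones. At Tgfb1 the sums were 44.6, 101.2 and 37.7, at Tgfbr1 63.4, 132.4 and 57.1, and at Smad2 32.2, 37.0 and 26.3.

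Motifs were counted in the 200 bases around each peak's centre, on both strands. The letters GAGGAAGT were found in 13.5% of the PU.1 peaks around the 9 genes in MPs (19 of 141, 95% Wilson interval 8.80 to 20.1), 16.7% at 36 h (23 of 138, 11.4 to 23.8) and 15.5% in OCs (23 of 148, 10.6 to 22.2), against 22.5%, 23.1% and 22.8% of all PU.1 peaks. The shorter GAGGAA was in 53.9%, 53.6% and 52.7%, against 57.8%, 58.7% and 58.6%. The E-box CACGTG was in 6.38%, 5.80% and 6.08%, against 3.21%, 3.41% and 3.28%, and CATGTG in 8.51%, 10.1% and 10.1%, against 14.6%, 14.3% and 14.4%. The SMAD motif CAGACA was in 15.6%, 20.3% and 16.2%, against 17.7%, 17.9% and 17.9%, and the longer GTCTAGAC in none, against 0.171%, 0.182% and 0.168%. TGANTCA was in 13.5%, 15.2% and 9.46%, against 11.5%, 13.0% and 10.5%, and TGTGGT in 15.6%, 14.5% and 12.8%, against 17.3%, 16.9% and 16.7%. Most peaks recur between the lists, so these are not 3 independent counts, and peaks of one window are not replicates.

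Each of the 14 MITF sites was searched around its PU.1 peak, and 10 held GAGGAA and 5 of these the full GAGGAAGT. Over all PU.1 peaks with MITF in MPs, at 36 h and in OCs GAGGAA was in 70.6%, 74.4% and 73.2%. GAGGAAGT was in 34.7%, 36.3% and 33.8% of them. The shares of all MITF peaks in this paragraph come from the bases around the MITF peak instead. By that count GAGGAA was in 69.9%, 71.4% and 70.1% and GAGGAAGT in 34.3%, 34.1% and 31.8%. CACGTG was found at 1 of the 14 sites, in intron 4 of Tgfbr1 (2.94%, 2.91% and 2.39% of all MITF peaks), and CATGTG at 3 (14.4%, 12.8% and 13.3%), which were the upstream Tgfbr1 site at 49.7 kb, the Tgfbr2 site in Gadl1 and the Smad3 site in intron 1. CAGACA was at 5 of the 14 (17.0%, 18.1% and 17.7% of all MITF peaks), TGTGGT at 2 (18.2%, 17.5% and 16.9%) and TGANTCA at 1 (11.7%, 10.8% and 9.22%). The Tgfb1 site 3.25 kb before the start and the Ski site at 59.6 kb held none of the 8 motifs. A match is only a run of letters in this window and does not show which factor was bound.

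The other genes of the pathway were compared as a list of 63, which leaves out the 9. PU.1 peaks were found around 61 of them at each stage, against 83.7%, 83.3% and 83.8% of all genes. The exceptions were the ligand genes Inhbb and Bmp4, and 48 of 63 had a summed score in OCs above that of the median gene. These sums and those below are not corrected for window length, and the median window over all genes was 115 kb. Ltbp1, a gene of ligand storage in a window of 487 kb, stood in OCs at the percentile 92.7 by sum. By peaks per 100 kb it stood at 37.5. Furin, in 117 kb, stood at 97.5 by sum and 98.9 by peaks per 100 kb. MITF peaks lay around 32, 25 and 31 of the 63, against 32.1%, 24.0% and 28.8% of all genes. By role, the genes of ligand storage and activation had the highest median sum in OCs, 808 over 10 genes, led by Lrrc33 with 1339.2, which encodes a protein that anchors latent TGF-beta on myeloid cells, and by the protease gene Furin with 1105.7. The 10 other ligand genes had the lowest, 92.5, with Gdf15 highest at 925.0 and Gdf11 at 362.7. The 10 other receptor genes had a median of 372, where Acvr1b (1202.6) and Acvrl1 (1020.6) have overlapping windows. The 4 other SMAD genes had 441, led by Smad1 with 872.2 and Smad9 with 537.5. The 9 inhibitor and ubiquitin ligase genes had 357, with Nedd4l at 1080.8 in a long window and Smurf2 at 658.0. The 8 nuclear partners had 401, with Zeb2 at 862.0 and Tgif1 at 741.6, and the 5 genes of other arms 267, with Tab2 at 531.4 and Tab1 at 318.7. The 7 target genes had 370, with Tgfbi at 1183.7 and Klf10 at 468.5. Relative to the ratio of the median gene, 1 of the 61 genes with peaks was at least 2-fold higher at 36 h than in MPs (1.87% of all genes). None was lower (1.73%). The 1 gene was Smad5, a SMAD of the bone morphogenetic protein branch, whose sum was 35.8 in MPs and 67.9 at 36 h. Between the other pairs of stages none of the 61 reached 2-fold on this scale. The shares of all genes were 1.11% higher and 1.11% lower from 36 h to OCs, and 1.25% and 1.17% from MPs to OCs.

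The genes whose sums over the 6 lists were most like those of each member were found by the distance between their log2 sums after adding 10. Tgfb1 was nearest to Pstpip2 (distance 0.19) and Vasp (0.26), Tgfbr1 to Zfp608 (0.26) and Tcte2 (0.29), and Tgfbr2 to Crtc3 (0.29) and Trpv2 (0.34). Smad3 was nearest to Tpm2 (0.10) and Ccdc19 (0.29), Smad2 to Siglech (0.51) and Pyhin1 (0.53), Smad4 to Uhrf2 and Coro1b (0.11 each), and Smad7 to Cpne7 and Traf3ip1 (0.15 each). Ski was nearest to Cotl1 (0.34) and Cd180 (0.38), and Skil to Kcnq3 (0.07) and Gyg (0.14). The nearest gene to Smad2, which had MITF at every stage, was farther from it than the nearest gene of any other member was.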

How the data were processed

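PU.1 and MITF ChIP-Seq lists of MPs, 36 h and OCs and an IgG list of MPs were used, 1 library each, grouped by their labels. The authors mapped reads to mm9 with Bowtie2 (CASAVA 1.8 is also named), called peaks with HOMER and deposited 1 list per library, whose score is the tag count of a peak scaled to a common library size. Versions and peak calling settings are not given in the sources used here. Scores were whole multiples of the worth of 1 tag to within 0.0511, which gave tags per peak. Genes and transcripts came from GENCODE vM1, sequences from the mm9 genome.

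Peaks were paired by mutual best overlap of at least 1 bp, and tags compared by an exact binomial test against the median ratio, with Benjamini-Hochberg adjustment over all pairs. A call needed an adjusted p under 0.05 and a 2-fold change. Intervals are 95%, Poisson for tags and peaks, Wilson for shares, and cover counting error only. The rule for named items took the strongest peak per gene and list, peaks within 1 kb of a start, pairs past the test or else the 5 largest changes each way among pairs of at least 30 tags, 2 pathway genes per group by OC sum, and the 2 genes most like each member. MITF sites, single-stage sites and further strong sites were named after their values were seen. Members and lists were chosen with earlier results of these data known. The pairing test was tested on simulated data. Python 3.11.15 with numpy 2.4.6, pandas 2.3.3, scipy 1.17.1 and matplotlib 3.10.9 was used.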

Additional observations from a re-analysis of the deposited data

How the results depend on the processing

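Of 90 values that answer a comparison under an alternative setting, 50 stayed close to the main value and 40 moved away from it. Direction was not scored for these values. With windows of 10 kb the PU.1 peaks numbered 87, 81 and 95 in MPs, at 36 h and in OCs and the MITF peaks 5, 4 and 5, with median summed scores of 531, 380 and 492 for PU.1 and 0, 0 and 0 for MITF. With peaks of at least 2 times the lowest score there were 90 and 84 PU.1 peaks in MPs and at 36 h and 4, 5 and 4 MITF peaks, the median sums were 769, 699 and 899 for PU.1 and 0, 0 and 0 for MITF, and 86.9% of the 36 h PU.1 peaks overlapped one of MPs. Counting sites nearest to a member's own start left 6, 5 and 6 MITF peaks. In pairs of at least 30 tags 3 PU.1 peaks differed 2-fold between MPs and 36 h and 1 between MPs and OCs, and no MITF peak did so in either step (0 and 0). Relative to library size, 7 PU.1 peaks differed 2-fold from 36 h to OCs, and MITF had 3 higher and 0 lower of 7 from MPs to 36 h and 0 higher and 4 lower of 6 from 36 h to OCs, all of which passed the test, against 0 and 1 passing relative to the median pair. The MITF calls that involve 36 h thus depend on the scaling. By the same scaling the PU.1 peaks from MPs to 36 h split into 2 higher and 6 lower instead of 4 and 4. The 6 letters GAGGAA in place of GAGGAAGT, a choice made after the data were seen, were in 53.9%, 53.6% and 52.7% of PU.1 peaks and 80.0%, 87.5% and 90.0% of the 10, 8 and 10 MITF peaks, against 69.9%, 71.4% and 70.1% of all MITF peaks, which lie within the intervals of the former. With pairs of at least 30 tags alone, where the median pair was recomputed on the pairs kept, the call at Tgfbr1 from 36 h to OCs was lost (log2 ratio -0.80, exact test with Benjamini-Hochberg adjusted p = 0.236), and MITF at Tgfb1 from MPs to 36 h, under 2-fold in the first place, no longer passed on p (0.52, 0.229). No paired analysis was possible because each condition was a single library, and no replicate could be left out.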

Other observations

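PU.1 peaks less than 12.5 kb apart were joined into stretches and ranked by summed score. The stretch upstream of Tgfbr1 in OCs spanned 114 kb (chr4:47232373-47346642), held 23 peaks with a sum of 1407.0 and ranked 29 of 30859, and it ranked 41 of 30623 in MPs. It reaches beyond the 50 kb window, over the collagen gene Col15a1. At 36 h the stretch with the highest sum there was 30.3 kb long and ranked 273 of 30288. At Ski the highest stretch in OCs was 84.1 kb long with 18 peaks and a sum of 1067.7, ranking 86, and its counterparts in MPs and at 36 h were 36.0 kb and 13.0 kb long, ranking 731 and 2846. The length of such a stretch turns on whether single weak peaks are listed, such as the OC peak of 13.2 in intron 1 of Ski at 22.8 kb, and the part of this in the ranks was not tested. At Smad7 the highest stretch in OCs had 4 peaks and a sum of 60.3.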
